A study of Mus musculus with 2 samples.

Results

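Open chromatin near 7 genes that encode the core transcription factors of fat cell formation was described in 2 populations of mouse adipose progenitors. The genes were Pparg, the 3 retinoid X receptor genes Rxra, Rxrb and Rxrg, and the C/EBP genes Cebpa, Cebpb and Cebpd. A peak was counted when its centre lay in the RefSeq span of one of these genes or within 100 kb of it (build mm10). The rule found 39 of the 22485 peaks of both deposited lists, 25 from the list of CD137+ cells and 14 from the list of PDGFRα+ cells. The rule used gene positions, not peak values, but the genes were chosen with earlier results of these data known.

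Accessibility was measured by ATAC-seq, an assay that uses a transposase to tag open DNA with sequencing adapters. The first group was CD137+ progenitors and the second was PDGFRα+ (CD140+) progenitors, both from adipose tissue of C57BL/6 mice, and each was represented by 1 library. Both groups were isolated with magnetic beads from SAT or VAT, cultured, exposed to an adipogenic cocktail and treated with 1 µM of the glucocorticoid dexamethasone. The sources used here do not tell which depot gave which cells or how many animals were pooled, and no library without dexamethasone was analysed here. The files hold only peaks that the authors call unique to a list, with neither height nor read number, and the depth of each library is therefore unknown. Absence from both lists can mean that a locus was open in both populations or closed in both. With 1 library per group no difference below has a replicate check, no p-value is given, and intervals cover counting error only.

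PPARγ is a nuclear receptor that binds DNA as a pair with a retinoid X receptor (RXR) and is required for fat cell formation. C/EBPβ and C/EBPδ are basic leucine zipper factors induced early by an adipogenic cocktail, and they activate Pparg and Cebpa. PPARγ and C/EBPα then maintain each other's expression and activate genes of lipid storage. Pparg has several transcription starts, of which the one farthest into the gene gives the isoform PPARγ2, which is largely restricted to fat cells.

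Each list had peaks over some starts of these genes. That no start lay under peaks of both lists may largely follow from keeping only peaks unique to a list. The CD137 list had a peak over the inner start of Pparg and over the inner start of Rxrg. The PDGFRα list had peaks over the start of Cebpb and over both starts of Rxrb, and its peak at Rxra reached into the promoter of the first start. Promoters are shown as RefSeq sequences of 300 bases on the plus strand, from 250 bases before the start to 50 bases after it (GRCm38.p6, which is mm10). The RefSeq table held 11 promoters for 6 of the 7 genes. Cebpd was not among them. The sequences below are the inner Pparg and Rxrg starts, covered in the CD137 list, then the outer Pparg start, covered in neither list, and then the 3 promoters of Cebpb, Rxrb and Rxra touched by the PDGFRα list. Capitals mark matches to the motifs named in the next paragraph.
Pparg, inner start, chr6:115421816-115422115: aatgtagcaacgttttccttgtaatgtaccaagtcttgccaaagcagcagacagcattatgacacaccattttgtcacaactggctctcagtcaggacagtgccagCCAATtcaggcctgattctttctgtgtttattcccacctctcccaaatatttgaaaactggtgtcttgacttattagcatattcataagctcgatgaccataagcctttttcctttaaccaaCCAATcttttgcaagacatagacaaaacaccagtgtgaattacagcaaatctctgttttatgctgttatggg
Rxrg, inner start, chr1:167618015-167618314: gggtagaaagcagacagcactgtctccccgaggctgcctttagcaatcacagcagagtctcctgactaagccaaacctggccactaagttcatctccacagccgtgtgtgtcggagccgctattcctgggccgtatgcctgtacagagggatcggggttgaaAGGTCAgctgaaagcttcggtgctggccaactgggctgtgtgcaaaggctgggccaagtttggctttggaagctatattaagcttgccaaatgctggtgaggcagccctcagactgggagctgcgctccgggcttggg
Pparg, outer start, chr6:115360894-115361193: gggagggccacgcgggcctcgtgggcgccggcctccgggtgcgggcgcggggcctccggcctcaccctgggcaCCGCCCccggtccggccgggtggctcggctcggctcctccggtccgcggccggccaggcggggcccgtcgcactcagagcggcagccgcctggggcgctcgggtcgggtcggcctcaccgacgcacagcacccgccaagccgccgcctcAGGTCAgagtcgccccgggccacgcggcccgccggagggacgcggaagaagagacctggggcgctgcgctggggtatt
Cebpb, chr2:167688665-167688964: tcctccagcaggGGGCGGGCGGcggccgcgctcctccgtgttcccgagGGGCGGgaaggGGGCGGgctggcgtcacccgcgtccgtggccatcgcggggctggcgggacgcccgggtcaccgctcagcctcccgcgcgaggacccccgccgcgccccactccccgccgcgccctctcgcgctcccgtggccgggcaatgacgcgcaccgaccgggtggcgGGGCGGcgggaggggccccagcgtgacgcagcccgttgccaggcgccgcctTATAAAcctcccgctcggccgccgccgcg
Rxrb, first start, chr17:34031562-34031861: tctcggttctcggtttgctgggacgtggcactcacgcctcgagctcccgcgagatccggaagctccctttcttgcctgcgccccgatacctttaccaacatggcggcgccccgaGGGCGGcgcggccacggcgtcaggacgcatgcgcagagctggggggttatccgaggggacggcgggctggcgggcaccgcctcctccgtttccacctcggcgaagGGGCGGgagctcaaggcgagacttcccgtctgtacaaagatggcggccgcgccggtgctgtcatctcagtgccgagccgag
Rxra, first start, chr2:27676951-27677250: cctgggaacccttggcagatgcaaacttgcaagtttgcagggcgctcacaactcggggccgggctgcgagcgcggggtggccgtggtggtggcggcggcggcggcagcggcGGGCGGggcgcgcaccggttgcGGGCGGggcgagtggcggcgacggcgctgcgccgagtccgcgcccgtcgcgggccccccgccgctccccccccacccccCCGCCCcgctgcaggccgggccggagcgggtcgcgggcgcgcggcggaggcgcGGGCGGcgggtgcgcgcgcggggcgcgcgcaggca

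The base composition of the covered promoters differed, on 2 CD137 and 4 PDGFRα promoters. The inner Pparg promoter had 40.3% G and C with 2 CpG pairs, and 9.18% of 21263 promoters of protein-coding genes had less G and C. The inner Rxrg promoter had 57.0% G and C with 9 CpG pairs, close to the median of 56.3% over all promoters. The 4 promoters touched by PDGFRα peaks were richer, at 80.7% with 50 CpG pairs for Cebpb, 68.7% and 82.0% for the 2 starts of Rxrb, and 83.0% with 55 CpG pairs for the first start of Rxra. The outer Pparg start, which no listed peak touched, had 80.3% and 44 CpG pairs. The middle Pparg start, also without a listed peak, had 62.7% and 13 CpG pairs, and 13 was the median of all promoters. Within Pparg the listed promoter thus had the fewest CpG pairs.

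Motifs were searched on both strands of all 11 promoters and set beside all 21263. The GC box GGGCGG was in 6 of the 11, against 46.2% of all promoters. It was in all 4 promoters touched by the PDGFRα list, with 5 matches at Cebpb, of which 2 overlap, and 4 at the first start of Rxra. The other 2 were the outer and middle Pparg promoters, which no listed peak touched. The 46.2% was not matched for base composition, and the 4 promoters were rich in G and C. The CCAAT box CCAAT was in 3 of 11, against 38.2%, with 2 matches in the inner Pparg promoter. The hexamer AGGTCA, bound by PPAR/RXR and other nuclear receptors, was in 4 of 11, against 14.7%, and its match at Rxrg began 88 bases before the inner start (position -88). The TATA box TATAAA was in 3 of 11, against 12.6%. The glucocorticoid receptor hexamer AGAACA (16.2% of all promoters), the TEAD motif CATTCC (13.6%), the C/EBP motif ATTGCA (7.49%) and the AP-1 motif TGANTCA (6.99%) had no match in the 11 windows. The same was so for the C/EBP palindrome TTGCNNCAA (1.79%), the EBF palindrome (0.959%) and the direct repeat of AGGTCA with 1 base between (0.047%). A match is a description of letters, and these windows leave out more distant parts of each promoter.

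Over all promoters, listed peaks were rare. A CD137 peak overlapped 2.76% of promoters and a PDGFRα peak 1.66%. At the 7 genes 2 of 11 promoters were overlapped by a CD137 peak and 4 of 11 by a PDGFRα peak. By gene, this was 2 of 6 genes for the CD137 list, against a background of 2.98%, and 3 of 6 genes for the PDGFRα list, against 1.82%. No promoter was overlapped by peaks of both lists, at these genes or elsewhere. Each list holds only peaks called unique to it, so this may largely follow from how the peaks were chosen.

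**Figure D1:**
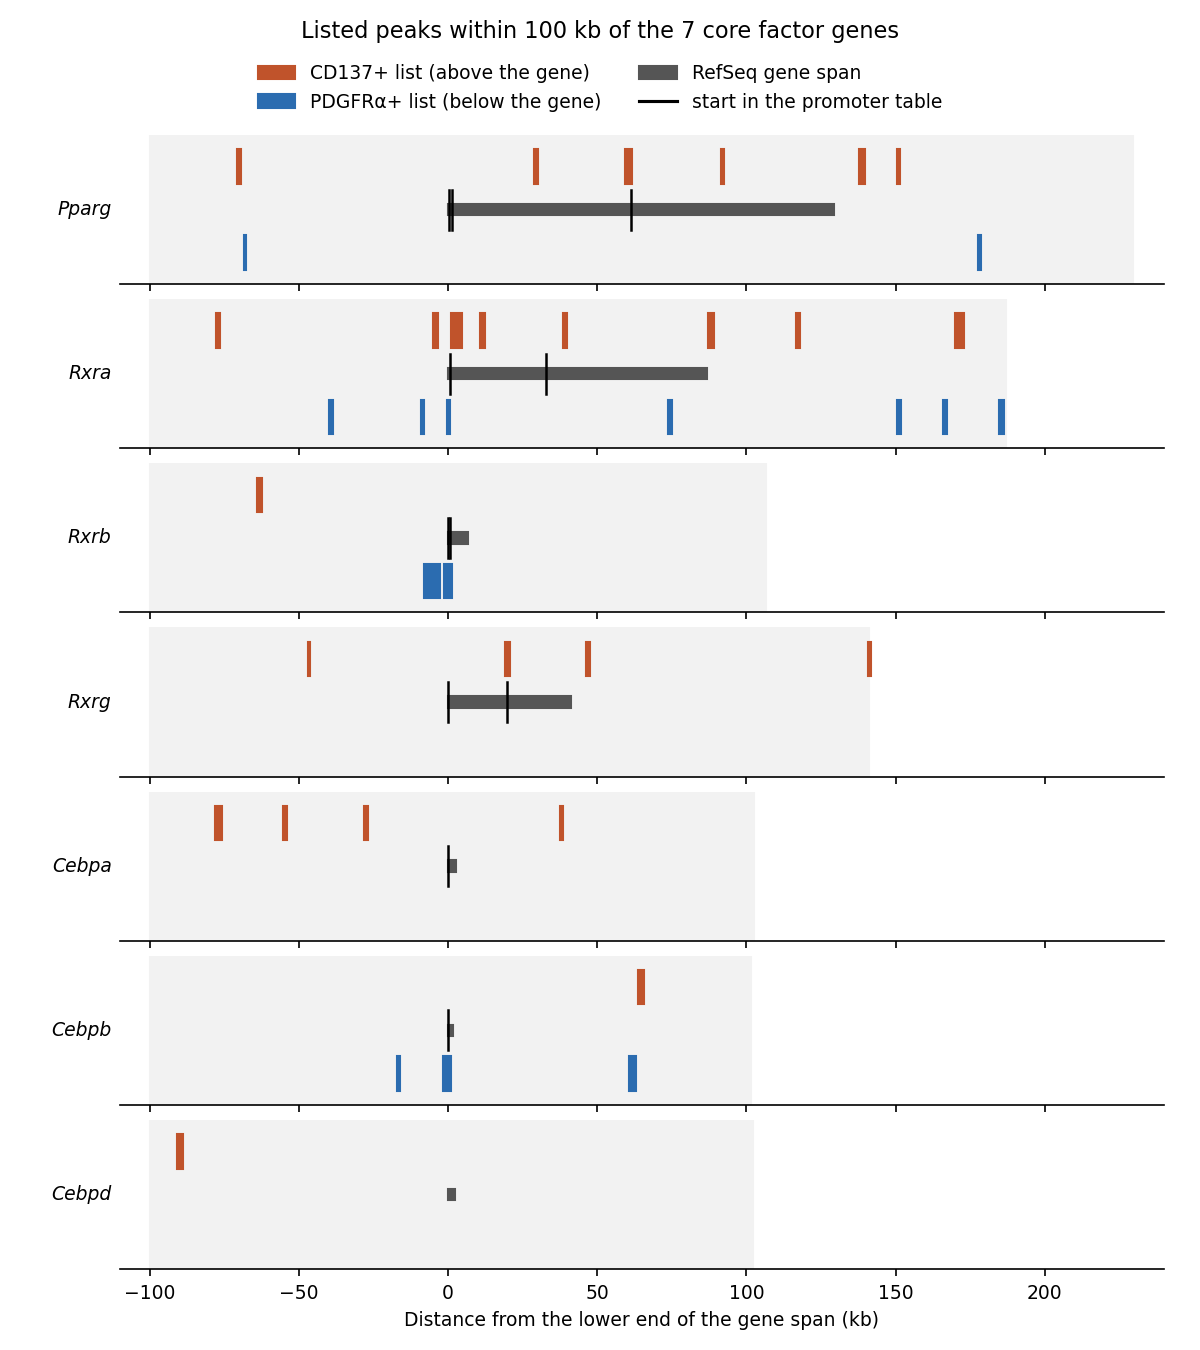
Position of the 39 peaks relative to each gene, in kb from the lower end of its span, with CD137 peaks above and PDGFRα peaks below the gene and the 100 kb window in grey. Of the 6 genes with starts in the promoter table, Pparg and Rxrg have a CD137 peak over their inner start. Cebpb and Rxrb have a PDGFRα peak over a start in that table, and at Rxra a PDGFRα peak covers the lower end of the span.

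The number of peaks differed from gene to gene, while their sum was split as in the whole lists. The CD137 share of the 39 peaks was 64.1% (exact 95% interval 47.2 to 78.8%), against 64.4% (63.8 to 65.0%) of all 22485 peaks. All 7 genes had a CD137 peak within 100 kb, where 66.8% of 21887 protein-coding genes did, and 4 of 7 had a PDGFRα peak, where 56.0% did. Rxrg, Cebpa and Cebpd had CD137 peaks only (23.4% of all genes), Pparg, Rxra, Rxrb and Cebpb had both (43.4%), none had PDGFRα peaks only (12.6%), and none was without a listed peak (20.6%). CD137 peaks outnumbered PDGFRα peaks at 5 genes (43.0% of all genes) and PDGFRα peaks outnumbered CD137 peaks at Rxrb and Cebpb (23.3%). Within 5 kb of the span 3 of the 7 genes had a CD137 peak and 3 a PDGFRα peak, against 21.3% and 16.5% of all genes.

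**Figure D2:**
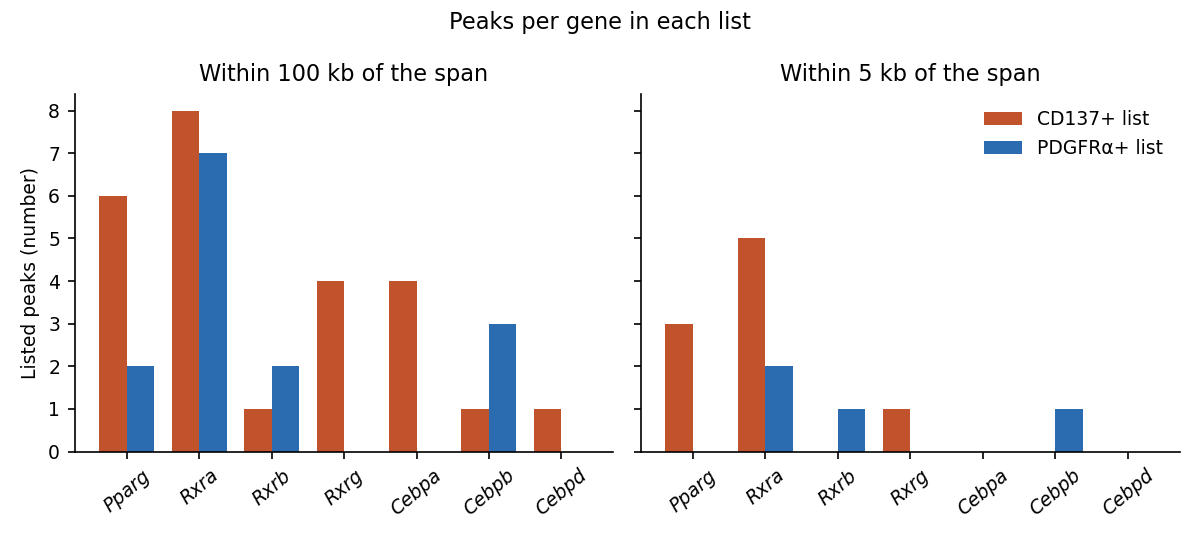
Number of listed peaks at each of the 7 genes, within 100 kb of the span on the left and within 5 kb on the right, 1 library per list. Rxra has the most peaks in both lists (8 CD137 and 7 PDGFRα within 100 kb), and Rxrg and Cebpa have 4 CD137 and 0 PDGFRα.

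Pparg (chr6:115360879-115490404, 129.5 kb) had 6 CD137 and 2 PDGFRα peaks, and all of the 3 peaks in the gene were CD137 peaks. They lay under ENSMUSG00000000440. The widest, at chr6:115420291-115422506 (2215 bp, classed exon), covers the inner promoter shown above in full, and its centre was 668 bp before that start. The other two were intronic, at chr6:115389584-115390872 (1288 bp), 27.9 kb after the middle start in the table, and at chr6:115452206-115453400 (1194 bp), 30.7 kb after the inner start. Neither the outer nor the middle start had a listed peak. The body of the gene thus held 3 peaks of the CD137 list, 1 of them at the PPARγ2 start, and none of the PDGFRα list. Of all listed peaks 64.4% are CD137 peaks, and how many genes of like length hold such a pattern was not counted.

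The other 5 Pparg peaks were classed intergenic. Beyond the end of the gene came CD137 peaks at chr6:115498565-115500494 (1929 bp, 9.13 kb away) and chr6:115511291-115512218 (927 bp, 21.4 kb away), then a PDGFRα peak at chr6:115538543-115539616 (1073 bp, 48.7 kb away). Before the gene, a CD137 peak at chr6:115290134-115291591 (1457 bp, 70.0 kb away) and a PDGFRα peak at chr6:115292371-115293216 (845 bp, 68.1 kb away) were 780 bp apart, and both were nearer to the synapsin gene Syn2. Within 50 kb Pparg had 5 CD137 peaks and 1 PDGFRα peak. Of all protein-coding genes 1.45% had at least 6 CD137 and at most 2 PDGFRα peaks within 100 kb, and 57 genes had the same pair of numbers. Pparg is long, and of 814 genes within a factor of 1.2 of its length 9.46% had at least 8 peaks of both lists together.

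Rxra (chr2:27676445-27763319, 86.9 kb), an RXR gene active in liver, skin and fat, had 15 peaks, 8 CD137 and 7 PDGFRα, the most of the 7 genes. Only 27 protein-coding genes (0.123%) had 15 or more, and among the 1153 genes within a factor of 1.2 of its length Rxra was the only one. Its window held 27.9 CD137 and 24.4 PDGFRα peaks per Mb. Peaks of the 2 lists were interleaved along the locus, upstream, inside and downstream of the gene.

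Around the first start of Rxra the lists lay side by side. The PDGFRα peak at chr2:27676114-27677122 (1008 bp, up5k) held 172 of the 300 bases of the promoter. It ended 79 bp before the first start in the promoter table (27677201). The RefSeq span of Rxra begins farther upstream, at 27676445, and the peak covered that end of the gene. A CD137 peak at chr2:27677531-27681072 (3541 bp, intron) began 330 bp after the start. It was the widest CD137 peak at the 7 genes, and 67 of 14483 CD137 peaks were as wide. Farther upstream were a CD137 peak at chr2:27671412-27673178 (1766 bp, up5k, 4.15 kb from the span) and PDGFRα peaks at chr2:27667200-27668330 (1130 bp, 8.68 kb) and chr2:27636567-27637822 (1255 bp, 39.3 kb), both intergenic. The last upstream peak was a CD137 peak at chr2:27598737-27600104 (1367 bp, 77.0 kb, intergenic), which lay nearer to Wdr5.

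Inside Rxra, 2 more CD137 peaks were intronic, at chr2:27687170-27688647 (1477 bp, 10.7 kb after the first start) and chr2:27714854-27716306 (1452 bp, 6.29 kb after the second start), and 1 PDGFRα peak was intronic at chr2:27750021-27751498 (1477 bp, 41.5 kb after the second start). Past the end came CD137 peaks at chr2:27763521-27765449 (1928 bp, down5k, 1.17 kb) and chr2:27793136-27794282 (1146 bp, intergenic, 30.4 kb). The 4 farthest peaks, all intergenic, were nearer to the collagen gene Col5a1. They were PDGFRα peaks at chr2:27826834-27828168 (1334 bp, 64.2 kb), chr2:27842229-27843554 (1325 bp, 79.6 kb) and chr2:27861120-27862766 (1646 bp, 98.6 kb), and a CD137 peak at chr2:27846373-27849303 (2930 bp, 84.5 kb). Counted within 5 kb, Rxra had 5 CD137 and 2 PDGFRα peaks, and its span itself held 3 of the 8 CD137 and 2 of the 7 PDGFRα peaks.

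Rxrb (chr17:34031812-34038403, 6.59 kb), a short gene in the major histocompatibility region, had 1 CD137 and 2 PDGFRα peaks. The PDGFRα peak at chr17:34030547-34033164 (2617 bp, up5k, ENSMUSG00000039656) held both starts and was centred 43.5 bp from the first. The other PDGFRα peak, at chr17:34023819-34029183 (up5k, 5.31 kb from the span), was 5364 bp wide, and 9 of 8002 PDGFRα peaks were as wide. Its centre lay in H2-Ke6, so it is not a peak of Rxrb alone. The CD137 peak was 63.1 kb away at chr17:33967895-33969507 (1612 bp, down5k), near Vps52.

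Rxrg (chr1:167598362-167639623, 41.3 kb), the RXR gene with the narrowest expression, known from muscle and brain, had 4 CD137 peaks and no PDGFRα peak. The peak at chr1:167617552-167618971 (1419 bp, exon, ENSMUSG00000015843) was centred 3.5 bp from the inner start. A second was at chr1:167644587-167645821 (1234 bp, down5k, 5.58 kb past the end), and an intergenic one at chr1:167551478-167552200 (46.5 kb before the gene) was the narrowest of the 25 CD137 peaks, at 722 bp. The last, at chr1:167739035-167740057 (1022 bp, intron, 99.9 kb), lay in Lmx1a and was just inside the window. The nearest PDGFRα peak was 302.7 kb from the gene, and within 200 kb Rxrg had 8 CD137 and 0 PDGFRα peaks, a pattern of at least 8 and 0 that 57 of 21887 genes (0.26%) had.

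The C/EBP genes are short, intronless genes and most of their peaks lay outside them. Together they had 6 CD137 and 3 PDGFRα peaks, with 66.7% from the CD137 list (Clopper-Pearson 95% interval 29.9 to 92.5%), and the 3 RXR genes had 13 and 9, or 59.1% (36.4 to 79.3%). Both intervals include the share of the whole lists.

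Cebpa (chr7:35119293-35121928, 2.64 kb) had 4 CD137 peaks and no PDGFRα peak. None was within 25 kb of the gene. The nearest were intergenic, at chr7:35091242-35092391 (1149 bp, 27.5 kb before it) and chr7:35156884-35157929 (1045 bp, 35.5 kb past its end), and this second one was nearer to Slc7a10. An intergenic peak at chr7:35063773-35065353 (1580 bp, 54.7 kb) and one at chr7:35041008-35043506 (2498 bp, up5k, 77.0 kb) lay farther upstream, and the centre of the second was in Pepd. The nearest PDGFRα peak was 136.8 kb away, at chr7:35257948-35259453. At least 4 CD137 and 0 PDGFRα peaks within 100 kb were found at 2.59% of genes, and the exact pair of 4 and 0, which Rxrg shares, at 356 genes.

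Cebpb (chr2:167688915-167690432, 1.52 kb) had 1 CD137 and 3 PDGFRα peaks, and the peak at its start was a PDGFRα peak. That peak, at chr2:167687270-167689751 (2481 bp, up5k, ENSMUSG00000056501), held the whole promoter and was centred 404.5 bp before the start. Another PDGFRα peak was at chr2:167671737-167672868 (1131 bp, down5k, 16.6 kb before the gene), nearer to Tmem189. Some 60 kb past the gene a PDGFRα peak at chr2:167749581-167752056 (2475 bp, intergenic, 60.4 kb) and the CD137 peak at chr2:167752462-167754490 (2028 bp, intergenic, 63.0 kb) were 406 bp apart. The order of the lists at Cebpb was thus the reverse of that at Cebpa within 100 kb, 1 and 3 against 4 and 0, and no test of that difference exists with 1 library each.

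Cebpd (chr16:15887286-15889545, 2.26 kb), a gene that glucocorticoids are known to induce, had the fewest peaks. Its only peak was a CD137 peak at chr16:15796556-15798458 (1902 bp, intron, 89.8 kb away), in the DNA repair kinase gene Prkdc. The nearest PDGFRα peak was 114.6 kb away. A pair of 1 CD137 and 0 PDGFRα peaks was common, at 2437 of 21887 genes.

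**Figure D3:**
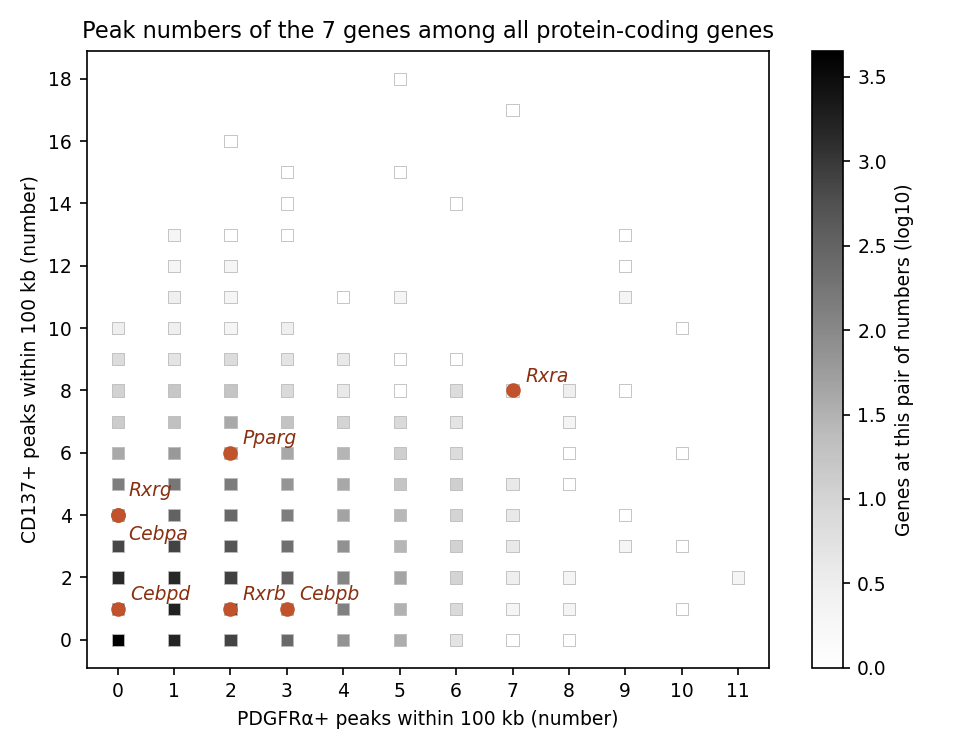
Number of CD137 peaks (vertical axis) and PDGFRα peaks (horizontal axis) within 100 kb for all 21887 protein-coding genes, shaded by the number of genes at each pair (log10), with the 7 core factor genes as points. Rxra, at 8 and 7, stands where 12 genes have at least as many of both. Cebpd and Rxrb lie among the common pairs (2437 and 1054 genes). The pairs of Cebpb (400 genes), of Rxrg and Cebpa (356 genes) and of Pparg (57 genes) are less so.

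The windows of the 7 genes were denser in peaks than the rest of the gene-bearing genome. They held 14.96 CD137 and 8.38 PDGFRα peaks per Mb, against 6.05 and 3.66 per Mb over the joined windows of all protein-coding genes. Without Rxra the densities were 12.3 and 5.06 per Mb. Member by member, 5 of the 7 had 4 or more peaks of both lists together, which 27.0% of all genes reached. Cebpd had 1 peak, and 79.4% of all genes had at least as many.

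The median widths were above those of the lists, although 7 of the 25 CD137 and 5 of the 14 PDGFRα peaks were narrower than their list's median. The median width was 1457 bp (quartiles 1194 to 1928 bp) for the 25 CD137 peaks, against 1221 bp in the whole CD137 list, and 1329.5 bp (1130 to 2268 bp) for the 14 PDGFRα peaks, against 1237 bp in the whole PDGFRα list. Within 50 kb the medians were 1353.5 and 1255 bp. Peaks of 2000 bp or more made up 5 of 25 CD137 peaks (20%), against 4.94% of the list, and 4 of 14 PDGFRα peaks (28.6%), against 5.52%. The wide CD137 peaks were at Rxra (2), Cebpa, Pparg and Cebpb, and the wide PDGFRα peaks at Rxrb (2) and Cebpb (2). Read counts are unknown, so width cannot be set against height.

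**Figure D4:**
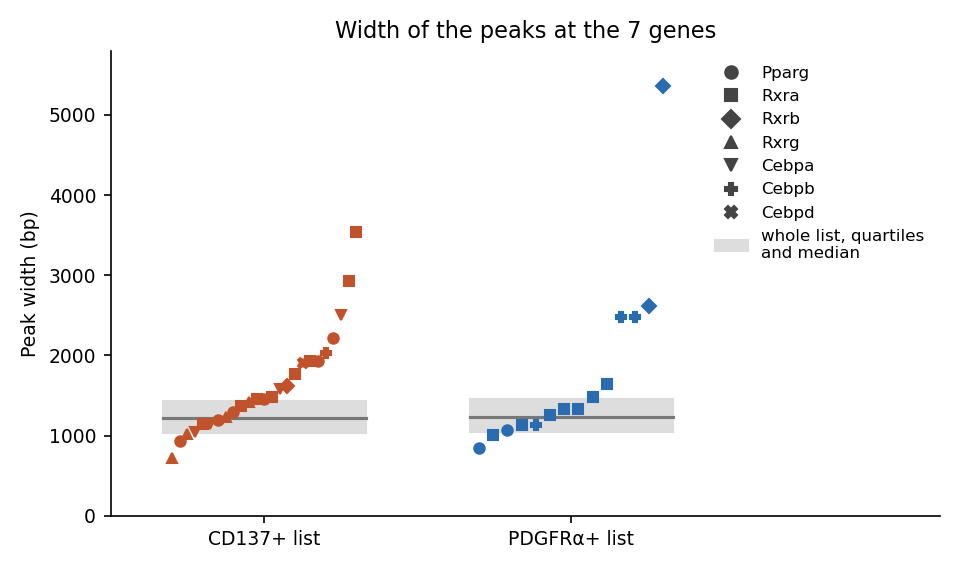
Width in bp of each of the 39 peaks, 1 point per peak in order of width with a marker shape per gene, over the quartiles (grey) and median (line) of its whole list. The CD137 peaks reach 3541 bp at Rxra and the PDGFRα peaks 5364 bp at Rxrb.

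The place classes of the CD137 peaks at the 7 genes were close to those of their list, and those of the PDGFRα peaks less so, on 14 peaks. Of the 25 CD137 peaks 11 were intergenic, 7 intronic, 3 down5k, 2 exonic and 2 up5k, shares of 44%, 28%, 12%, 8% and 8% against 45.3%, 31.7%, 7.22%, 7.17% and 8.64% in the list. Of the 14 PDGFRα peaks 8 were intergenic, 4 up5k, 1 intronic and 1 down5k, and none was exonic, shares of 57.1%, 28.6%, 7.14%, 7.14% and 0% against 38.7%, 11.1%, 33.6%, 7.57% and 9.12% in the list. The 4 up5k peaks were at Rxra, Rxrb and Cebpb, and the intronic one was at Rxra. In 16 of the 39 cases, 9 CD137 and 7 PDGFRα peaks, another protein-coding gene was nearer to the peak. For the 23 peaks whose nearest gene was one of the 7, the CD137 share was 69.6% (exact 95% interval 47.1 to 86.8%).

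Other genes of the pathway were counted in the same windows, in 6 lists chosen with earlier results known. The 4 other C/EBP family genes had 13 CD137 and 7 PDGFRα peaks. Cebpg, a neighbour of Cebpa, had 7 and 0 (3 of the 13 CD137 peaks also count for Cebpa), Cebpe had 0 and 5, Cebpz 4 and 2, and Ddit3, a stress-induced member, 2 and 0. Cebpg and Ddit3 had CD137 peaks only, as 23.4% of all genes did, and Cebpe had PDGFRα peaks only, as 12.6% did.

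The 13 other nuclear receptors that pair with RXR had 34 CD137 and 27 PDGFRα peaks, of which 55.7% were CD137 peaks (Clopper-Pearson 95% interval 42.4 to 68.5%). Peaks of both lists were present at 10 of the 13, against 43.4% of all genes. Ppara, the PPAR of fatty acid oxidation, had 0 and 3, the thyroid hormone receptor gene Thra 6 and 3, the retinoic acid receptor gene Rarb 7 and 5, and the orphan receptor gene Nr4a1 4 and 1.

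Regulators acting on PPARγ and C/EBPα had peaks of both lists in about the proportion of the whole lists (64.4% CD137). The 16 activators upstream of Pparg and Cebpa had 40 CD137 and 20 PDGFRα distinct peaks (66.7%), led by Ebf2 (8 and 1), Zfp423 (6 and 3), Ebf1 and the lipogenic factor gene Srebf1 (5 and 2 each). The 15 coactivators and corepressors had 48 and 23 (67.6%), among them the coactivator genes Ncoa3 (7 and 4) and Ncoa2 (4 and 1), and Nrip1 (3 and 0). All 15 had a CD137 peak, against 66.8% of all genes. Some of the 15 are long, such as Ncoa2 at 235.1 kb, which widens the window, and the 66.8% was not matched for length.

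Repressors and target genes also had peaks of both lists. The 12 repressors of fat cell formation had 23 CD137 and 16 PDGFRα peaks (59.0%, Clopper-Pearson 95% interval 42.1 to 74.4%), with 7 and 3 at the Wnt effector gene Tcf7l2, 6 and 3 at Irf4, 2 and 0 at Nr2f2 and 2 and 1 at Dlk1, which encodes the preadipocyte protein Pref-1. The 28 target genes had 47 and 41 (53.4%, exact 95% interval 42.5 to 64.1%). Agpat2, an enzyme of triglyceride synthesis, had 6 and 1 and Gpam, which acts before it in that pathway, 1 and 5, while the adiponectin gene Adipoq and Adig had 2 and 0 each. The 64.4% of the whole lists lies inside the interval of the repressors and just above that of the target genes. Summed over the genes with repeats, the CD137 share in the windows of all protein-coding genes was 59.5%, which both intervals include. That sum counts a peak once per gene, while the intervals rest on distinct peaks. Medians per gene were 4 CD137 and 2 PDGFRα peaks for the 7 core factor genes, 2 and 1 for the target genes, and 1 and 1 for all genes.

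**Figure D5:**
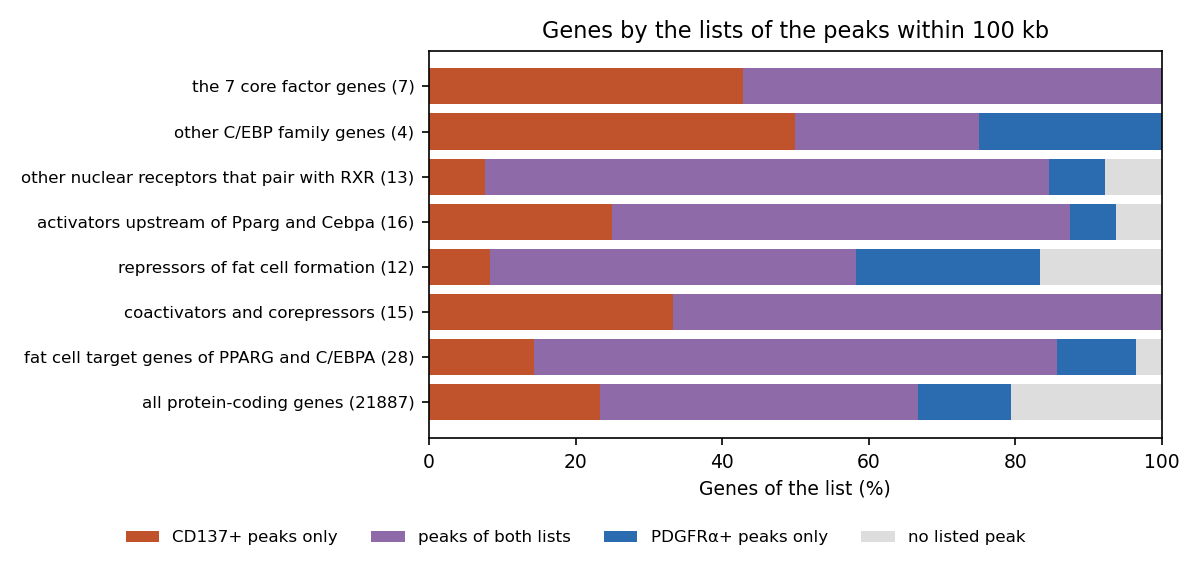
Share of genes (%) in each list, with the number of genes in brackets, that have within 100 kb only CD137 peaks, peaks of both lists, only PDGFRα peaks or no listed peak. None of the 7 core factor genes and none of the 15 coactivators and corepressors is without a CD137 peak, against 66.8% with one among all genes.

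The whole lists hold 14483 CD137 and 8002 PDGFRα peaks, and the markers of the labelled cells are not resolved by them. Within 100 kb the genes of the sorted proteins had 2 CD137 and 1 PDGFRα peaks for Tnfrsf9, which encodes CD137, and 2 and 0 for Pdgfra. The 5 fat cell markers had 7 and 6 peaks and the 6 stromal progenitor markers 13 and 4, though Ly6a had 0 and 1. The 3 mesothelial markers had 3 and 11, of which Wt1 gave 0 and 8, Msln 1 and 2 and Upk3b 2 and 1. Thermogenic markers had 13 and 6, endothelial markers 8 and 4, immune markers 3 and 1 and early embryo markers 7 and 4. In the windows of all protein-coding genes the CD137 share, summed with repeats, was 59.5%. The part of other cells in the peaks at the 7 genes was not tested.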

How the data were processed

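ATAC-seq was done on 2 libraries. Per the file headers, each deposited list gives the position of every peak, the Ensembl ID of a gene and a class of place (intergenic, intron, exon, and up5k or down5k near gene ends), with no height or score. Per the submitters' processing notes, the build was mm10, and CASAVA 1.8 is named there with no role. Not given in the sources used here: how reads were aligned and shifted, how peaks were called and judged unique, and whether starts count from 0 or 1. Coordinates are printed as listed. Sequencing depth and calling threshold can change how many peaks a list holds.

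Gene spans and promoter sequences are from RefSeq tables of GRCm38.p6 (mm10). Of intronic peaks, 95.4% (CD137) and 95.2% (PDGFRα) were centred in a protein-coding gene, and when all positions were moved by 3 Mb the values were 41.1% and 41.5%. Counts were set beside 21887 protein-coding genes with the same window. Shares carry exact (Clopper-Pearson) 95% intervals, which treat peaks as independent. The counting step placed all 2000 simulated centres correctly. The members, gene lists and tests were chosen with earlier results of these data known. All peaks at the 7 genes are named, with up to 4 genes per pathway list by the largest difference in peak number (ties by total, then by name). Some genes that this rule picks are not reported here. Likeness to other genes is given as the number with the same pair of counts, since 2 lists give no pattern to rank by. Tools were Python 3.11.15, scipy 1.17.1, numpy 2.4.6, matplotlib 3.10.9 and pandas 2.3.3.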

Additional observations from a re-analysis of the deposited data

How the results depend on the processing

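The numbers of peaks at the 7 genes moved with the window, and the CD137 share moved less. With windows of 50, 25 and 5 kb in place of 100 kb there were 16, 12 and 9 CD137 and 9, 7 and 4 PDGFRα peaks. Peaks whose nearest coding gene is one of the 7 numbered 16 and 7, and peaks outside the intergenic class 14 and 6. The wider 50% of each list left 18 CD137 and 9 PDGFRα peaks, and without Rxra there were 17 and 7. Fewer positions, peaks or genes are counted in each of these settings. In 17 settings run, the CD137 share stayed between 57.6% (lists of equal length) and 70.8% (without Rxra), inside the interval of the main value. That interval is wide and most settings count part of the same 39 peaks, so staying inside it is a weak check. Overlap with the window by 1 bp, and counting peaks within 1 kb once, left the same 25 and 14 peaks. Lists of equal length hold as many peaks of each kind, so 64.4% is not the reference for 57.6%. The median widths stayed inside the main quartiles in the 3 settings run for each list. No paired analysis was possible because each group has 1 library, and for that reason none could be left out. Depth is unknown and was not equalised.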

Other observations

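Peaks of opposite lists lay close together at several of the 7 genes, a pattern chosen after its values were seen. Within 1 kb of a peak of the other list were 3 of 25 CD137 peaks (12%), against 1.53% of the CD137 list, and 3 of 14 PDGFRα peaks (21.4%), against 2.77% of the PDGFRα list. The 3 pairs were 780 bp apart upstream of Pparg, 409 bp apart across the first start of Rxra and 406 bp apart downstream of Cebpb. Within 5 kb the numbers were 5 of 25 (20%, against 6.15%) and 5 of 14 (35.7%, against 11.1%). Most pairs within 5 kb were at Rxra, whose window held 27.9 CD137 and 24.4 PDGFRα peaks per Mb. The windows of the 7 genes were denser in peaks than those of all genes, and the list shares were not matched for density. How listed peaks were separated from shared ones is unknown, and the part of that rule in these pairs was not tested.

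The difference in base composition between covered promoters of the 7 genes was larger than over the whole lists. Promoters overlapped by CD137 peaks had a median of 58.3% G and C (quartiles 51.1 to 67.3%, 586 promoters) and those overlapped by PDGFRα peaks 61.2% (54.7 to 67.3%, 352 promoters). At the 7 genes the values were 40.3% and 57.0% for the 2 CD137 promoters and 68.7 to 83.0% for the 4 PDGFRα promoters. Of these 4, the 2 at Rxrb lie under the same peak. So few promoters can separate easily, and how often others do was not counted. Median numbers of CpG pairs were 14 and 15 over the whole lists.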
